A study of Mus musculus with 6 samples.

Results

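The Eph receptors and ephrin-B ligands measured here are 10 genes, taken by name from the 17418 genes of the expression table. They are the EphA receptors *Epha3*, *Epha4*, *Epha5* and *Epha7*, the EphB receptors *Ephb1*, *Ephb2* and *Ephb3*, and the ephrin-B ligands *Efnb1*, *Efnb2* and *Efnb3*. All 10 were present in the table, and their transcripts made up 39958 unique molecular identifiers (UMIs, tags that mark single captured transcripts), or 0.0556% of the UMIs counted in 17280 cells. No filter on measured values was used to choose them, but earlier results of these data were known.

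Eph receptors are receptor tyrosine kinases at the cell surface, and their ligands, the ephrins, stay attached to the membrane of the neighbouring cell, so that signalling requires contact between cells. Ephrin-A ligands are held by a lipid anchor and ephrin-B ligands by a transmembrane segment with a cytoplasmic tail, and a bound pair can signal into the receptor cell (forward) and into the ligand cell (reverse). EphA receptors mostly bind ephrin-A and EphB receptors ephrin-B, while EphA4 binds both classes. In the developing cortex the family is known for guiding axons and migrating neurons, for shaping dendritic spines and for contacts between astrocytes and neurons, and in blood vessels for the boundary between arteries and veins.

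Single cells were taken from the dissociated whole cortex of 6 pups, male and female, on postnatal day 5 (P5), 1 mouse per sample, and captured with InDrop, a droplet method that counts the 3′ ends of transcripts. The 3 wild-type (WT) mice were of the sighted strain FVB.129P2-Pde6b+ Tyrc-ch/AntJ, and the 3 Fmr1-KO mice carried the Fmr1tm1Cgr allele with the same Pde6b+ and Tyrc-ch alleles. *Fmr1* encodes FMRP, the RNA-binding protein lost in fragile X syndrome, and the knockout allele is constitutive, not limited to a cell type. WT 1, Fmr1-KO 1 and Fmr1-KO 2 were collected with bead version V2 (batch 1), and WT 2, WT 3 and Fmr1-KO 3 with V3.8 (batch 2).

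The 17 libraries held 8070039 to 20677233 UMIs per mouse and medians of 1957 to 4908 UMIs per cell. The authors' annotation gave 18 subtypes, of which 15 had at least 10 cells in 3 or more mice. Of 47 markers listed for those subtypes, 40 were highest in their own subtype, and every one of the 15 had at least 1 such marker. *Fmr1* was lower in the libraries labelled Fmr1-KO over all cells (log2 fold change -2.06, SE 0.11, FDR 6.8e-04, edgeR quasi-likelihood test over mice), although these 3′ tags lie downstream of the disrupted exon and so measure transcript, not an intact allele. Of the 15463 distinct cell barcodes, 2231 (14.4%) occurred in more than 1 library. For the 1410 barcodes that occurred in exactly 2 libraries of the same mouse, the authors' subtype was the same in 90.1%. For the 260 barcodes in 2 libraries of different mice it was the same in 18.5%. The ranking of subtypes and the genotype tests within cell types were therefore also made with 1 cell per mouse and barcode. The single-cell shares, the layer and vessel classes, the batch description and the comparison of astrocytes with neurons were not.

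The EphA receptors were highest in neurons, migrating ones included, except *Epha7*. Values are CPM, a gene's UMIs in a mouse's cells of a subtype scaled to a total of 1000000, given as mean ± SD over mice. Because the annotation was itself built from the cells' expression, levels by subtype are descriptions and were not tested. *Epha4*, the receptor for both ligand classes (mm10, chr1:77367185-77515088, minus strand), was highest in SVZ cells, migrating neurons of the subventricular zone (819 ± 306 CPM, n = 4), and next in excitatory neurons (593 ± 76.4 CPM, n = 6). In excitatory neurons its lowest, median and highest mice were 492, 620.1 and 674 CPM. SVZ cells were above excitatory neurons in 4 of 4 mice, namely WT 1 and the 3 Fmr1-KO mice. WT 2 and WT 3 had under 10 SVZ cells each, so SVZ cells could not be ranked in the WT mice alone, where excitatory neurons were highest. The next subtypes were far below and close together: OPC_2, a small group in which the neural progenitor genes *Dll1* and *Dbx2* were highest (283 ± 126 CPM, n = 5), ganglionic cells, inhibitory precursors of the ganglionic eminence (262 ± 93.9 CPM), interneurons (239.7 ± 74.1 CPM) and Astrocytes_2, the smaller astrocyte subtype (239 ± 42.5 CPM), all within each other's SD. The larger subtype, Astrocytes_1, stood at 84 ± 15.5 CPM, endothelial cells at 50.2 ± 10.2 CPM and microglia at 13.9 CPM.

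*Epha3*, which mainly binds ephrin-A ligands (mm10, chr16:63543534-63864175, minus strand), was highest in CR cells, the Cajal-Retzius neurons of the cortical surface (101 ± 15 CPM, n = 5), followed by SVZ cells (68.1 ± 42.4 CPM, n = 4), which were lower in 3 of the 4 mice with both. Excitatory neurons (29.1 ± 10.3 CPM) and interneurons (24.9 ± 4.73 CPM) did not differ beyond their SD. No UMI was seen in 810 microglia, which allows a share of up to 0.37% of cells with a UMI. *Epha5*, a receptor for ephrin-A ligands in neurons (mm10, chr5:84054761-84417382, minus strand), was highest in excitatory neurons (229 ± 107 CPM), with SVZ cells (179 ± 133 CPM) within the SD but lower in 4 of 4 mice with both. Both astrocyte subtypes carried about a like level of it (79.6 ± 39.6 and 76.3 ± 37.1 CPM). *Epha7*, also an ephrin-A receptor (mm10, chr4:28813131-28967499, plus strand), stood at a similar level in fibroblasts (162 ± 61.9 CPM, n = 3) and in excitatory neurons (158 ± 37.3 CPM, n = 6) within their SD, and excitatory neurons were separated from CR cells (71.5 ± 34.5 CPM) by more than both SDs.

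By mean CPM each EphB receptor was highest in another class of cells, namely oligodendrocytes, excitatory neurons and astrocytes. *Ephb1* (mm10, chr9:101922128-102354693, minus strand) was highest in oligodendrocytes (178 ± 54.3 CPM), then in SVZ cells (156 ± 57.9 CPM) and Astrocytes_2 (112 ± 33 CPM), each within the SD of its neighbour. Oligodendrocytes were above SVZ cells in 2 of the 4 mice with both, and SVZ cells had the highest mean when Fmr1-KO 3 was left out. Precursors of oligodendrocytes, OPC_1, were lower and varied little (69.5 ± 7.4 CPM). A protein-coding gene on the opposite strand, *9630041A04Rik*, lies near the 3′ end of *Ephb1* and has no row in the table, and how reads from its 3′ end were counted is not given in the sources used here. *Ephb2*, which takes part in excitatory synapse formation (mm10, chr4:136647539-136835988, minus strand), was highest in excitatory neurons (84.5 ± 35.1 CPM), with SVZ cells (57.6 CPM) and interneurons (55.1 ± 12 CPM) within the SD and ganglionic cells next (41.1 ± 21.8 CPM). Excitatory neurons were above SVZ cells in 4 of 4 mice with both.

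*Ephb3* (mm10, chr16:21204755-21223305, plus strand) was highest in astrocytes. Its lowest, median and highest mice in Astrocytes_1 were 91.6, 122 and 139 CPM, and the mean was 117 ± 21 CPM. Astrocytes_1 were above Astrocytes_2 (77.2 ± 18.1 CPM) in 6 of 6 mice, and OPC_1 followed (64 ± 6.91 CPM). Excitatory neurons (20.7 CPM) and oligodendrocytes (9.84 ± 15.9 CPM) were low, so the precursors and the mature cells of that lineage differed in opposite senses for *Ephb3* and *Ephb1*. None of 123 CR cells held an *Ephb3* UMI, which allows a share of up to 2.44%.

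The ligands were highest in fibroblasts and Astrocytes_2 (*Efnb1*), in interneurons (*Efnb2*), and in excitatory neurons and interneurons alike (*Efnb3*). *Efnb1* (mm10, chrX:99136130-99148991, plus strand) was highest in fibroblasts (229.7 ± 82.3 CPM, n = 3) and Astrocytes_2 (176 ± 50.5 CPM), whose SDs overlapped, and fibroblasts were above Astrocytes_2 in 3 of 3 mice. Ganglionic cells had 146 ± 24.5 CPM and interneurons 98.8 ± 23.7 CPM, with overlapping SDs, and Astrocytes_1 had 65.7 ± 19.1 CPM. *Efnb2*, the arterial ligand of blood vessels (mm10, chr8:8617434-8661242, minus strand), was in these whole subtypes highest in interneurons (126 ± 23.8 CPM), above excitatory neurons (72.6 ± 17.8 CPM) and endothelial cells (42.5 ± 8.18 CPM). *Efnb3* (mm10, chr11:69554092-69560205, minus strand), the ligand known from midline axon guidance, did not separate excitatory neurons (201 ± 51.1 CPM) from interneurons (189 ± 51.9 CPM), and either was higher in 3 of 6 mice. It was 116 ± 37.2 CPM in Astrocytes_2 but 46.9 ± 12.6 CPM in Astrocytes_1, and 9.58 CPM in microglia. With 1 cell per mouse and barcode the leading subtype was the same for 10 of 10 genes. With cells thinned to 700 UMIs it was the same for 8 of 10, with *Epha7* then highest in excitatory neurons and *Ephb2* in SVZ cells. In the WT mice alone it was the same for 8 of 10, with *Epha4* and *Epha7* then highest in excitatory neurons.

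**Figure D1:**
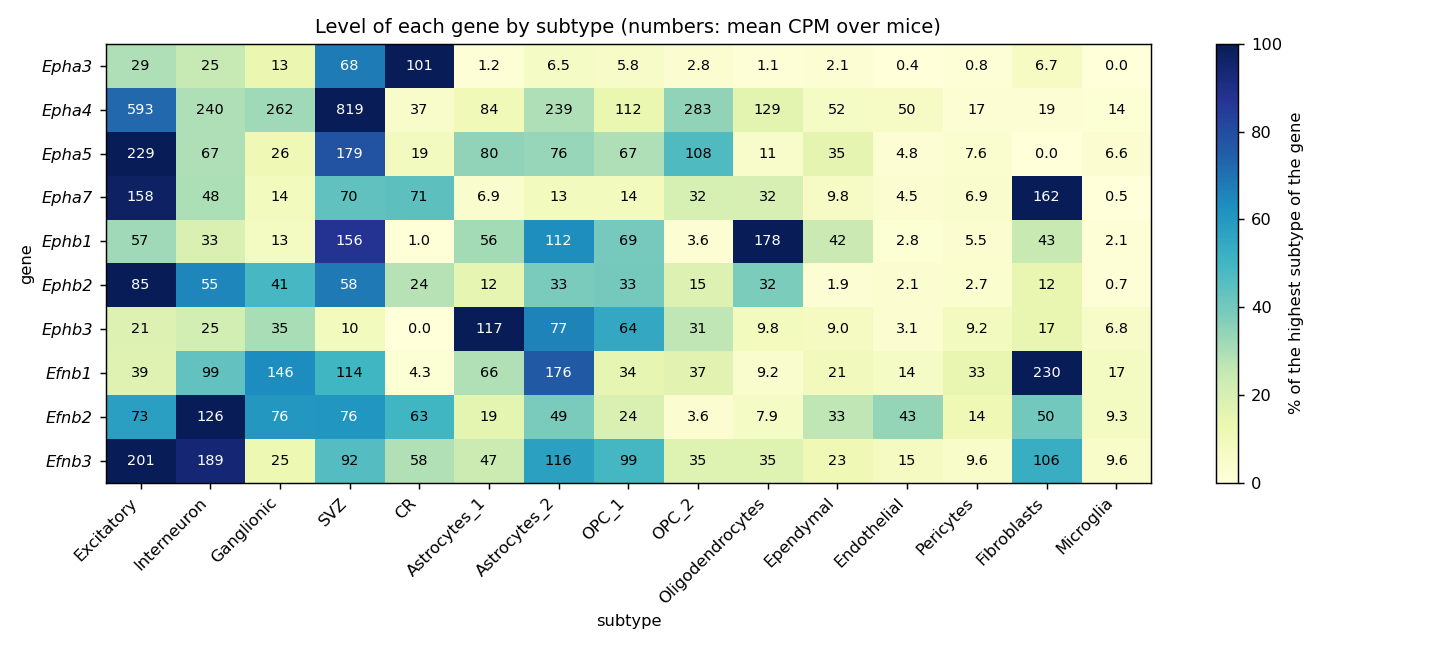
Heat map of the 10 genes (rows) by subtype (columns), where numbers are mean CPM over mice of both genotypes and the colour is the percent of the gene's highest subtype, so that colours compare subtypes within a gene. *Epha4* stands highest in SVZ cells and excitatory neurons, *Ephb3* in Astrocytes_1, and *Efnb3* at about the same level in excitatory neurons and interneurons.

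Ligand and receptor transcripts were next counted in single cells. At the depth as sequenced, 58.2% of interneurons held a UMI of any of the 3 ligands, 43.5% a UMI of *Epha4*, *Ephb1*, *Ephb2* or *Ephb3*, and 29.2% both. The receptors *Epha3*, *Epha5* and *Epha7* were not counted in any of these shares. In microglia, which served as the background for free RNA, the shares were 8.02% and 4.57%, at a median of 2655.5 UMIs per cell against 2469 in interneurons. To compare subtypes of unequal depth, each cell was thinned to 700 UMIs. Of thinned interneurons 26.5% then held a ligand UMI and 17.5% a receptor UMI, while of thinned excitatory neurons 16.5% held a ligand and 28.9% a receptor UMI. By this count interneurons were weighted to ligands and excitatory neurons to the counted receptors, and 4.87% and 4.98% of the thinned cells held both. Of the 18 subtypes, SVZ cells had the largest thinned share with a counted receptor (47.7% against 13.8% with a ligand). Fibroblasts had the largest with a ligand (31.7% against 3.6% with a counted receptor), but *Epha7*, left out of the count, stood at 162 CPM in them. Between the astrocytes, both shares were larger in Astrocytes_2 (20% ligand, 28.7% receptor) than in Astrocytes_1 (7.7% and 16%), and thinned microglia had 2.48% and 1.49%. These shares describe transcripts caught in a cell and say nothing of which cells touched.

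Within the excitatory neurons, *Epha4* and *Epha7* were distributed in opposite ways across cortical layers. Cells with a UMI of an upper layer gene (such as *Cux1*, *Cux2* or *Rorb*) and none of a deep layer gene (such as *Bcl11b*, *Fezf2* or *Tle4*) were set against cells of the reverse kind, 469 against 406 cells; no Eph or ephrin gene is in either list. *Epha4* in the upper layer cells was 773, 1005 and 1085 CPM in the WT mice and 742, 836 and 1041 CPM in the Fmr1-KO mice. In the deep layer cells it was 327, 215 and 188 CPM in the WT mice and 123, 253 and 217 CPM in the Fmr1-KO mice. The ranges did not overlap, and upper layer cells were higher in 6 of 6 mice (913 ± 148 against 220.3 ± 67.9 CPM, 4.15-fold). *Epha7* in the upper layer cells was 93.5, 70.6 and 87.8 CPM in the WT mice and 137, 171 and 56.2 CPM in the Fmr1-KO mice. In the deep layer cells it was 286, 139 and 142 CPM in the WT mice and 215, 253 and 49.98 CPM in the Fmr1-KO mice, higher than in the same mouse's upper layer cells in 5 of 6 mice (103 ± 43.2 against 181 ± 87 CPM). Of the other members, *Efnb2* and *Ephb3* were higher in upper layer cells in 5 of 6 mice, *Epha5*, *Ephb2* and *Efnb1* in 4, *Epha3* in 3, *Ephb1* in 2 and *Efnb3* in 1.

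The rule left out 742 cells with UMIs of both lists, which were much deeper (median 4620.5 UMIs, against 1292 in upper and 1071.5 in deep layer cells), and 543 with neither. When cells were assigned instead by which list had more UMIs, a rule added after seeing the data that kept 790 and 708 cells, *Epha4* was 878 ± 92.7 against 277 ± 61.3 CPM (higher in upper layer cells in 6 of 6 mice). *Epha7* was 136 against 201 CPM, lower in upper layer cells in 6 of 6. Under the same rule *Efnb3* was higher in deep layer cells in 6 of 6 mice (179 against 231 CPM), and *Ephb1* in 5 of 6. *Ephb2* (104 against 67.2 CPM), *Efnb1* (44.2 against 33.4 CPM) and *Epha3* (34.9 against 22 CPM) were higher in upper layer cells in 6 of 6 mice, and *Efnb2* and *Ephb3* in 4 of 6. *Epha5* was higher in 3 of 6 (239.6 and 234 CPM). Outside the 10 genes, the kinase-inactive receptor *Ephb6* was higher in upper layer cells in 6 of 6 mice by the first rule (133 against 68.1 CPM).

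In endothelial cells *Efnb2* followed the artery and vein markers. The 91 cells with arterial genes alone (such as *Gja4*, *Gja5* or *Sox17*) had 74.9 ± 39.7 CPM of it (4 mice), and the 222 cells with venous genes alone (such as *Nr2f2*, *Slc38a5* or *Vwf*) had 12.9 ± 18.1 CPM (6 mice). Arterial cells were higher in 4 of 4 mice with both, but only 12 and 6 UMIs stood behind these values. Assigned by the larger number of UMIs, 364 arterial and 909 venous cells had 91.3 ± 16.6 and 21.1 ± 3.99 CPM, and the arterial cells were higher in 6 of 6 mice. *Ephb4*, the venous receptor for this ligand, did not show the reverse pattern: it was 54 CPM in the arterial and 38.5 CPM in the venous cells by that rule, with arterial cells higher in 5 of 6 mice. The 3′ end of *Ephb4* lies near that of *Zan*, a gene on the opposite strand. *Efna1*, an endothelial ephrin-A ligand, was also higher in the arterial cells in 6 of 6 mice (246 against 167 CPM).

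**Figure D2:**
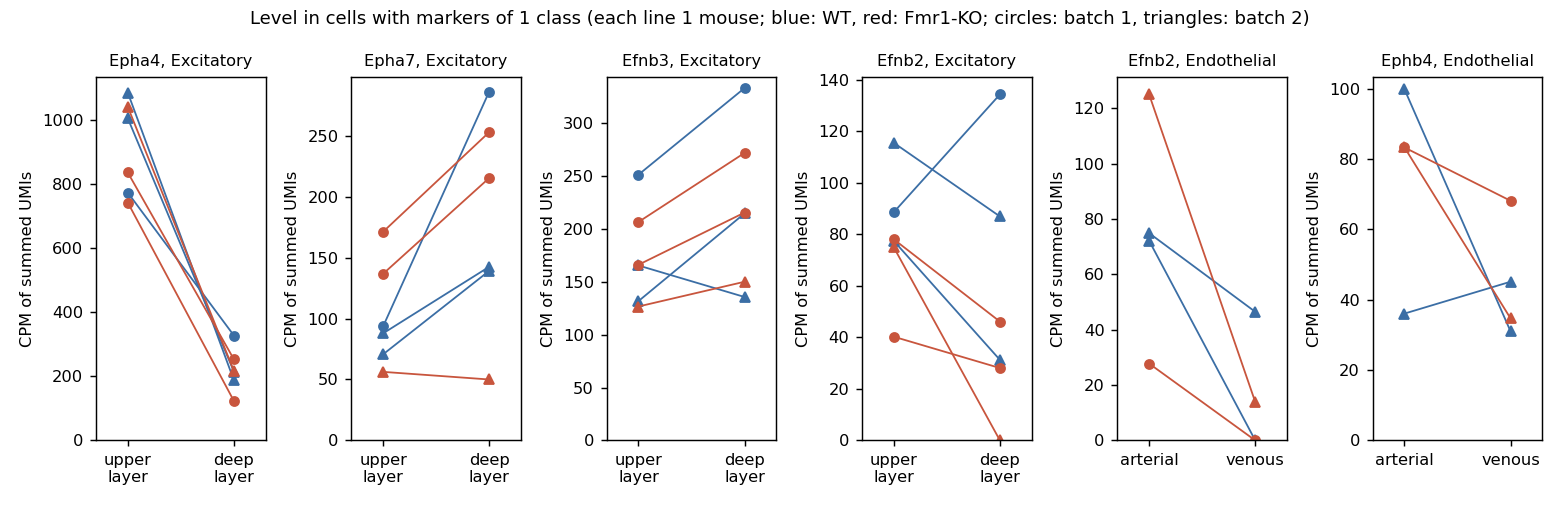
CPM in each mouse in upper against deep layer excitatory neurons and in arterial against venous endothelial cells, where a line joins the values of 1 mouse (blue WT, red Fmr1-KO) and cells hold UMIs of 1 marker list and none of the other. *Epha4* is lower in deep than in upper layer cells in all 6 mice, *Epha7* is higher in 5 of 6, and *Efnb2* is higher in arterial cells in all 4 mice with both.

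How alike the profiles of the members across subtypes were varied from pair to pair. Over the 14 subtypes with at least 100 cells, Pearson's r of log2(mean CPM + 1) was largest for *Ephb2* with *Efnb3* (0.81), for *Epha4* with *Epha5* (0.80) and for *Epha4* with *Ephb2* (0.78), and it was lowest for *Epha3* with *Ephb3* (-0.14) among the 45 pairs. These points share libraries and depth and are a description. Among 13489 genes, the closest profile to *Ephb3* was that of *Tkt*, the transketolase of the pentose phosphate pathway (r = 0.90), to *Efnb1* that of *Gli1*, a transcription factor of Hedgehog signalling (0.84), and to *Epha4* those of the synaptic vesicle gene *Sv2c* (0.92) and the receptor kinase *Tyro3* (0.92). The closest to the others were *Micu3* for *Epha3* (0.92), *Kcnk10* for *Epha5* (0.91), *Cyp2j5* for *Epha7* (0.91), *Dlgap1* for *Ephb1* (0.86), *Fxyd6* for *Ephb2* (0.94), *Snapc3* for *Efnb2* (0.83) and *Purg* for *Efnb3* (0.91).

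Several of the genes differed between the collection batches, a pattern described after seeing the data and not tested. Of the 40 combinations of gene and cell type that passed the filter below, the CPM of the batches did not overlap in 25, against 38.4% of 42562 combinations over all genes, and batch 1 was higher in 19 of the 25 (over all genes 19.1% had batch 1 higher and 19.3% batch 2). The share of all genes whose batches did not overlap ran from 23.4% in oligodendrocytes to 57.9% in neurons, so it depends on the types counted. No member was tested in pericytes (27.4%) or microglia (26.1%), which are part of the 38.4%. *Epha5* was higher in batch 1 in 5 of 5 cell types, 1.48 to 2.61-fold. In excitatory neurons it was 304, 131 and 122 CPM in WT 1, 2 and 3 and 286, 376 and 156 CPM in Fmr1-KO 1, 2 and 3, so that the 3 mice of batch 1 were the 3 highest. *Efnb1* was likewise higher in batch 1 in 5 of 5 types (1.31 to 1.6-fold) and *Efnb3* in 5 of 6. *Epha4* went the other way, with batch 2 higher in 5 of 9 types. *Ephb3* overlapped between the batches in 3 of 3. Bead version and collection batch cannot be told apart. The main genotype tests carried the batch as a term, while group means, SDs and overlap of CPM were not adjusted for it.

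**Figure D3:**
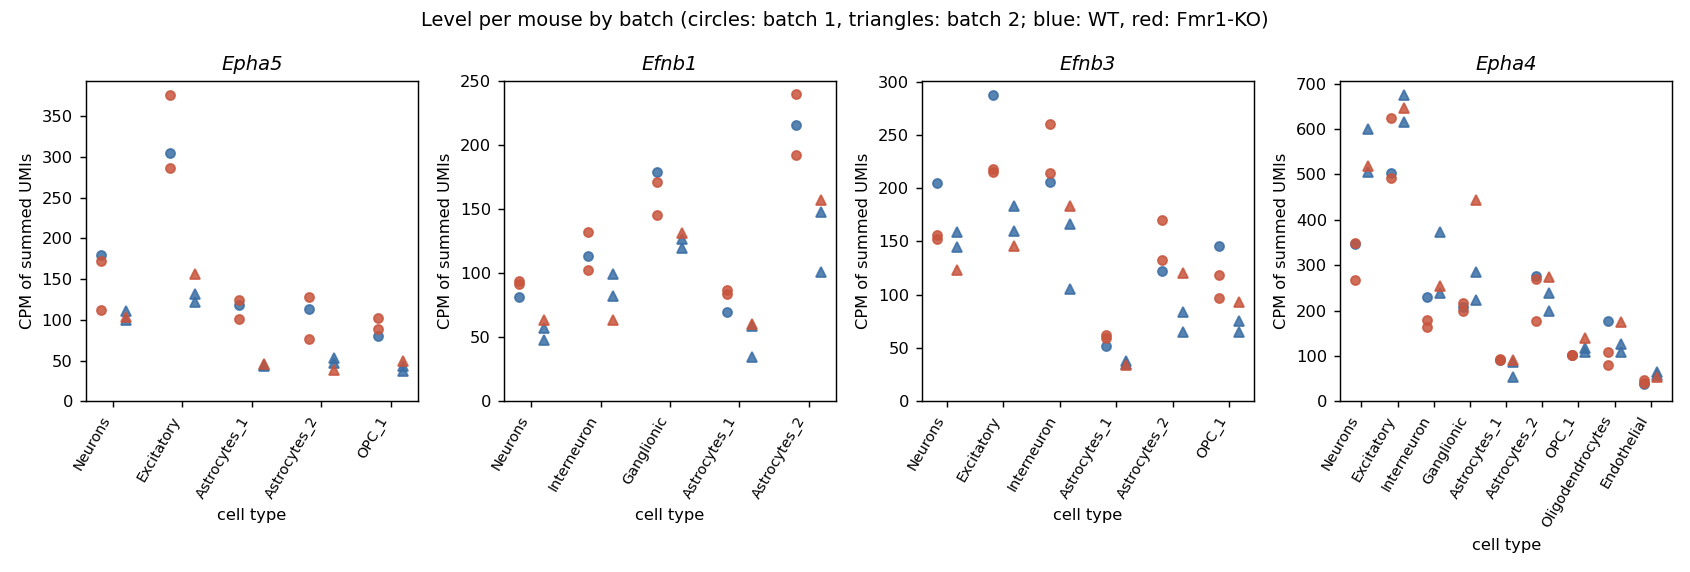
CPM of *Epha5*, *Efnb1*, *Efnb3* and *Epha4* in each mouse by cell type, with circles for batch 1 and triangles for batch 2, blue for WT and red for Fmr1-KO. Mice of batch 1 lie above those of batch 2 in 5 of 5 types for *Epha5* and for *Efnb1*, and *Epha4* has batch 2 higher in 5 of 9.

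None of the 10 genes passed the test between genotypes in any cell type. UMIs were summed per mouse in 11 cell types, since cells of 1 mouse are not replicates, and genes detected in 15% or more of a type's cells were tested with edgeR's quasi-likelihood test, with Benjamini-Hochberg adjustment (FDR) over all genes of the type. A gene was called at an FDR under 0.01 and a log2 fold change of at least 0.20 in either direction. Of the 40 combinations tested, 0 were called, against 6 of 42562 over all genes (0.0141%), and 6 had an unadjusted p under 0.05 (6.05% over all genes). DESeq2 also called 0, with 3 at an unadjusted p under 0.05, and edgeR with 1 cell per mouse and barcode called 0, with 6. Neurons hold the cells of their subtypes, so these combinations are not independent. Of the 40 log2 fold changes 21 were above 0 and 19 below, with a median of 0.017, and the CPM of the groups did not overlap in 2 (7.3% over all genes). *Epha3* was below the filter in each type, with 28.7 ± 6.67 CPM in WT and 30.9 ± 7.53 CPM in Fmr1-KO neurons, and no member passed it in pericytes or microglia.

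In Astrocytes_1, *Ephb3* was the member with the smallest p. Its level there was 112, 94.3 and 91.6 CPM in the WT mice and 139, 132 and 135 CPM in the Fmr1-KO mice. All 3 Fmr1-KO mice were above all 3 WT mice; groups that did not overlap, in either direction, were seen for 6.21% of the 4814 genes tested in this type. The means were 99.2 ± 11 and 135 ± 3.16 CPM (log2 fold change 0.42, SE 0.091, FDR 0.92, 1.34-fold), resting on 365 to 1022 UMIs per mouse, and the difference did not pass the threshold. The unadjusted p was 0.0014 (edgeR quasi-likelihood test). Without the detection filter the FDR was 0.047 at a log2 fold change of 0.42, still above 0.01. With edgeR's own filter the FDR was 0.92, and in the other alternatives over mice it lay between 0.58 and 0.995. Within batch 1 (1 WT and 2 Fmr1-KO mice) the log2 difference was 0.27 and within batch 2 (2 WT mice and 1 Fmr1-KO mouse) 0.53, too few mice for a test, and leaving out each mouse in turn gave 0.29 to 0.54. The summed oligodendrocyte markers *Mbp* and *Sirt2*, neither at 0, were 215 to 229 CPM in the WT and 216 to 294 CPM in the Fmr1-KO mice of this type, ranges that overlapped at their lower end and reached higher in Fmr1-KO, while oligodendrocytes themselves had 9.84 CPM of *Ephb3*. The part of these markers in the value was not tested. In the smaller subtype, Astrocytes_2, *Ephb3* was 95.1, 80.5 and 57.6 CPM in the WT mice and 69.9, 59.5 and 101 CPM in the Fmr1-KO mice, which overlapped (log2 fold change -0.054, SE 0.26, FDR 0.997).

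*Epha4* in Astrocytes_1 was 91, 86.4 and 52.7 CPM in the WT mice and 93, 90.2 and 90.9 CPM in the Fmr1-KO mice. WT 3 alone was low, and the other 5 mice lay close together. The means were 76.7 ± 20.9 and 91.4 ± 1.46 CPM (log2 fold change 0.23, SE 0.18, FDR 0.92), with 0.010 within batch 1 and 0.38 within batch 2. Without Fmr1-KO 3 the value was 0.028 and without WT 1 0.41. The other members tested in Astrocytes_1 included *Efnb1* (log2 fold change 0.34, SE 0.18, FDR 0.92) and *Ephb1* (log2 fold change -0.16, SE 0.10, FDR 0.92). At an unadjusted p under 0.05 stood 1 of the 6 members tested, against 4.65% of all genes in this type.

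*Ephb1* in Astrocytes_2 had the largest difference of the 40. It was 73, 93.9 and 86.4 CPM in the WT mice and 158, 123 and 138 CPM in the Fmr1-KO mice, on 24 to 78 UMIs per mouse. The groups did not overlap (7.15% of 4085 genes in this type), and the difference did not pass the threshold (log2 fold change 0.76, SE 0.22, FDR 0.79, 1.7-fold). Within batches it was 0.94 and 0.61, and with cells thinned to 700 UMIs it was 1.44. The same oligodendrocyte markers, both detected, did not overlap either, at 158 to 262 CPM in WT and 277 to 382 CPM in Fmr1-KO. Oligodendrocytes are the subtype highest in *Ephb1* (178 CPM). They themselves had 13526 to 17470 CPM of these markers in WT and 7425 to 16687 CPM in Fmr1-KO. Of the 15 marker lists 4 were apart, the others being ependymal (43.2 to 54.4 against 88.5 to 102 CPM) and SVZ markers (0 to 3.6 against 9.6 to 23.3 CPM), higher in Fmr1-KO, and ganglionic markers (168 to 212 against 130.4 to 159 CPM), lower. The part of these other cells in the value was not tested. *Efnb3* in the same cells was 122, 83.9 and 64.8 CPM in the WT mice and 170.0, 133 and 120.0 CPM in the Fmr1-KO mice. WT 1 lay within the Fmr1-KO range, and the groups overlapped (log2 fold change 0.45, SE 0.21, FDR 0.99; 0.31 and 0.69 within batches). These were the 2 of 6 members at an unadjusted p under 0.05, against 4.26% of all genes in this type.

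In neurons, the ligand *Efnb3* had the smallest p of the members, with the sign opposite to that of *Ephb3*. Over all neuron subtypes together it was 205, 159 and 145 CPM in the WT mice and 152, 156 and 123 CPM in the Fmr1-KO mice. WT 1 was the highest and Fmr1-KO 3 the lowest, and the groups overlapped. The means were 169.7 ± 31.4 and 144 ± 17.8 CPM (log2 fold change -0.36, SE 0.10, FDR 0.16), with -0.41 and -0.30 within batches and -0.23 without the batch term. It was 1 of 7 members at an unadjusted p under 0.05 where 16.4% of all genes in neurons were, so the count was near the background. The mix of neuron subtypes also differed: ganglionic cells made up 10.9%, 13.2% and 12.3% of WT neurons and 18.5%, 23.5% and 22.2% of Fmr1-KO neurons. With 290 neurons drawn per mouse in the same mix of subtypes, the log2 fold change of *Efnb3* was -0.16 (SE 0.15, FDR 1).

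Within single neuron subtypes the sign of *Efnb3* was not the same. In excitatory neurons it was 288, 183 and 159.6 CPM in the WT mice and 218, 215 and 146 CPM in the Fmr1-KO mice, which overlapped (log2 fold change -0.31, SE 0.14, FDR 0.999; -0.41 and -0.23 within batches). The value was -0.087 without the batch term, -0.056 with same-numbered mice as a replicate block and -0.54 at 700 UMIs per cell. This was 1 of 6 members at an unadjusted p under 0.05, against 3.46% of all genes. In interneurons it was 206, 106 and 167 CPM in the WT mice and 214, 260.1 and 183 CPM in the Fmr1-KO mice, with WT 2 the lowest and the groups overlapping (log2 fold change 0.25, SE 0.17, FDR 0.998). *Epha4* in ganglionic cells was 208, 284 and 222 CPM in the WT mice and 199, 216 and 444 CPM in the Fmr1-KO mice. Fmr1-KO 3 stood alone above the rest, and the fitted difference (log2 fold change 0.42, SE 0.18, FDR 0.77) rested on it: without Fmr1-KO 3 it was 0.00056, and within batches it was -0.0056 and 0.81. It was 1 of 3 members tested there at an unadjusted p under 0.05, against 6.31% of all genes. The remaining 34 combinations had an unadjusted p above 0.05. Over the types in which a member was tested, log2 fold changes ran from -0.30 to 0.42 for *Epha4* (9 types), from -0.24 to 0.28 for *Epha5* (5), from -0.26 to -0.016 for *Epha7* (2), from -0.16 to 0.76 for *Ephb1* (4), from -0.072 to 0.12 for *Ephb2* (2) and from -0.054 to 0.42 for *Ephb3* (3), whose lowest was in Astrocytes_2. For the ligands they ran from -0.13 to 0.34 for *Efnb1* (5 types), from -0.40 to 0.38 for *Efnb2* (4) and from -0.36 to 0.45 for *Efnb3* (6), so that every ligand had values on both sides of 0. The lowest of *Efnb2* was in excitatory neurons, at 81.7, 102 and 68.3 CPM in the WT mice and 64.6, 49.7 and 69.1 CPM in the Fmr1-KO mice, where WT 3 lay among the Fmr1-KO values (log2 fold change -0.40, SE 0.21, FDR 0.999).

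**Figure D4:**
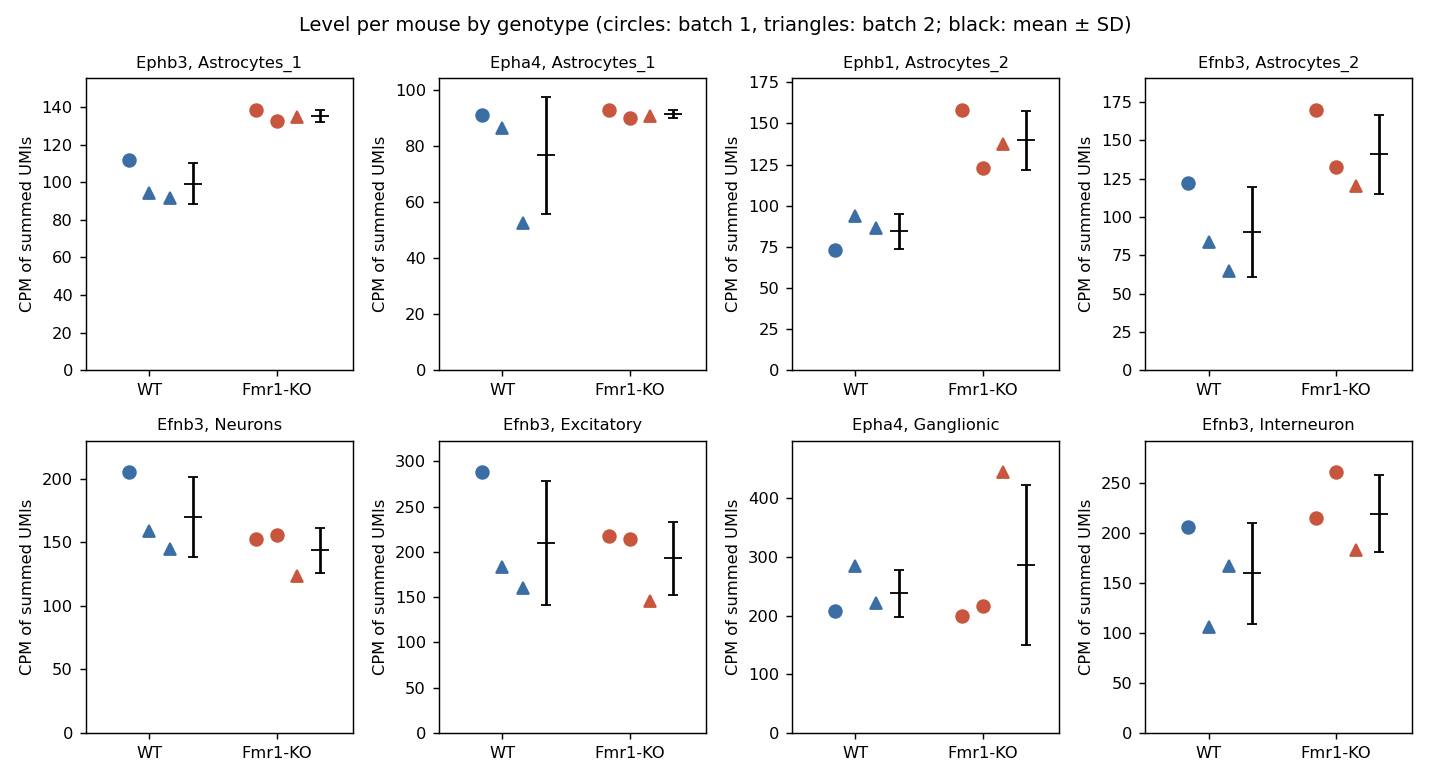
CPM of single mice by genotype for 8 combinations of gene and cell type, with the mean ± SD in black, circles for batch 1 and triangles for batch 2. The 3 Fmr1-KO mice lie above the 3 WT mice for *Ephb3* in Astrocytes_1 and *Ephb1* in Astrocytes_2, the groups overlap in the other 6 panels, and no panel passed the test.

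**Figure D5:**
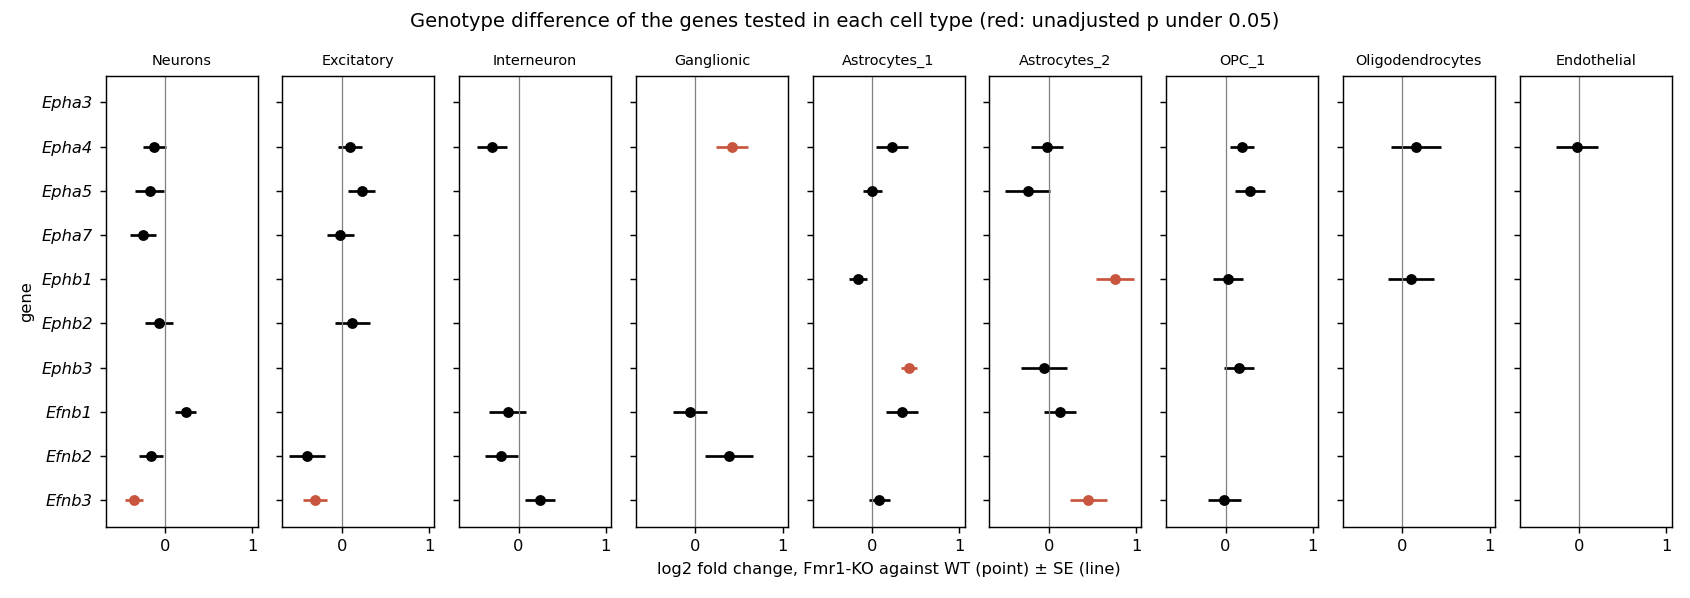
Log2 fold change of Fmr1-KO against WT (points) with its SE (lines) for the 40 combinations of gene and cell type tested, 1 panel per type, with red for the 6 at an unadjusted p under 0.05. Values lie between -0.40 and 0.76, and none passed an FDR under 0.01.

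Whether the genotype difference was another in astrocytes than in neurons was tested in 1 fit over both types with the mouse as a block. Of the 3030 genes detected in 15% or more of the cells of each type, 4 were members, and 0 of these were called at an FDR under 0.05 (0.33% over all genes), while 2 had an unadjusted p under 0.05 (15.5% over all genes). The difference in log2 fold change, Astrocytes_1 minus neurons, was 0.50 (SE 0.14, FDR 0.12) for *Efnb3* and 0.43 (SE 0.16, FDR 0.19) for *Epha4*. For *Epha5* it was 0.25 (SE 0.20, FDR 0.6) and for *Efnb1* 0.18 (SE 0.15, FDR 0.61). With the equal mix of neuron subtypes the values became 0.23 for *Efnb3*, 0.14 for *Epha4*, 0.016 for *Epha5* and 0.52 for *Efnb1*. Single mice also moved them: *Efnb3* was 0.28 without WT 1, *Epha4* 0.26 without Fmr1-KO 3, *Efnb1* 0.081 without WT 3, and *Epha5* 0.00082 without Fmr1-KO 1. *Ephb3* was too rare in neurons to enter this fit.

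Taking single cells as the replicates gave another count. A likelihood ratio test over cells, with the same thresholds, called *Ephb3* (log2 fold change 0.38, FDR 8.3e-12), *Efnb1* (0.27, FDR 1.7e-04) and *Epha4* (0.23, FDR 0.0029) higher in Fmr1-KO Astrocytes_1, and *Efnb3* lower in Fmr1-KO neurons (-0.27, FDR 0.0028). Over all genes it called 4.96% in Astrocytes_1 and 17.6% in neurons. The signs were those of the test over mice. This test takes its error from the spread between cells and not from the spread between mice, which leaves the mice unreplicated in it.

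The other receptors and the ephrin-A ligands, 12 genes, were described for their highest subtype where its mean reached 20 CPM, which left out *Epha1*, *Epha6* and *Epha10*. *Epha2* (162 ± 30.1 CPM), *Efna1* (191 ± 78.1 CPM, next pericytes with 9.86 CPM) and *Ephb4* (42.3 ± 19.2 CPM) were highest in endothelial cells. *Ephb6* was highest in CR cells (191 ± 50.1 CPM), *Efna5* (126 ± 32 CPM) and *Efna3* (75.3 ± 16 CPM) in excitatory neurons and *Efna2* in interneurons (83 ± 14.4 CPM). *Epha8* in fibroblasts (36.5 ± 27 CPM) and *Efna4* in SVZ cells (52.4 ± 71.3 CPM) had SDs larger than their distance from the next subtype. Between genotypes 11 combinations of 6 of these genes were tested, 0 were called and 1 had an unadjusted p under 0.05, against 6.05% over all genes and types and 16.4% in neurons. That was *Efna5*, a ligand of EphA receptors, in neurons, at 107, 92.7 and 81.2 CPM in the WT mice and 51.5, 95.7 and 63.4 CPM in the Fmr1-KO mice. Fmr1-KO 2 lay within the WT range (log2 fold change -0.49, SE 0.21, FDR 0.29; -0.53 and -0.45 within batches), and with the equal mix of neuron subtypes the value was -0.35 (FDR 1).

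Of 40 genes that act next to Eph receptors or ephrin-B tails (exchange factors, adaptors, kinases, small GTPases and their effectors), 34 were tested in 224 combinations. None was called, 7 had an unadjusted p under 0.05, 2 with higher and 5 with lower levels in Fmr1-KO, and the groups did not overlap in 16. Over all genes the shares were 6.05% and 7.3%, so neither count was above the background. *Chn1*, which encodes the Rac GTPase-activating protein α-chimaerin that acts below EphA4, accounted for 3 of the 7. In neurons it was 131, 217 and 206 CPM in the WT mice and 114, 109.6 and 142 CPM in the Fmr1-KO mice (log2 fold change -0.41, SE 0.12, FDR 0.16; -0.23 and -0.58 within batches). The groups overlapped, and without Fmr1-KO 3 the value was -0.22. In excitatory neurons its log2 fold change was -0.37 (FDR 0.999), and in OPC_1 -0.38 (FDR 0.95), where the sign turned to 0.14 at 700 UMIs per cell. The others were the adaptors *Crkl* in ganglionic cells (log2 fold change 0.56, SE 0.25, FDR 0.77) and *Grb2* in OPC_1 (log2 fold change 0.29, SE 0.12, FDR 0.95), the lipid phosphatase gene *Inppl1* in Astrocytes_2 (log2 fold change -0.49, SE 0.22, FDR 0.99) and the Src family kinase gene *Yes1* in endothelial cells (log2 fold change -0.54, SE 0.19, FDR 0.32).

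With 3 mice per genotype the intervals were wide, and an FDR that misses the threshold does not show equal levels. The intervals given next use a normal approximation and are narrower than the test's own distribution, with its few degrees of freedom, would give. The 95% interval of the log2 fold change (normal approximation) was 0.25 to 0.60 for *Ephb3* in Astrocytes_1, -0.13 to 0.58 for *Epha4* in the same cells, 0.34 to 1.19 for *Ephb1* in Astrocytes_2 and -0.55 to -0.16 for *Efnb3* in neurons, none of them adjusted for the number of genes tested.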

How the data were processed

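Single-cell InDrop counts of 6 P5 cortices (3 WT, 3 Fmr1-KO, grouped by the GEO labels) were analysed, with mice as replicates. The authors aligned reads to mm10 with TopHat2 2.0.14, counted unique UMIs with ESAT and deposited raw UMI counts per gene and cell, without normalization; the deposited size factor of each cell, a ratio computed within batch, served in 1 alternative. Subtypes and doublet labels are the authors', and 1113 doublets were left out. Gene positions are from GENCODE vM21.

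UMIs were summed per mouse and cell type (mice with under 10 cells left out) and tested with edgeR 4.0.16 in R 4.3.3 (quasi-likelihood, TMM, batch as covariate; filter of 15% of cells); DESeq2 1.42.0 and the alternatives in the closing section were also run. The authors' methods took cells as replicates. Each SE is the log2 fold change divided by the root of F. The fit was tested on simulated counts with changes of log2 1, larger than any member's difference in the main fits, and smaller changes were not simulated. It recovered 94% of the changes in Astrocytes_1, 63.5% in Astrocytes_2 and 31.5% in oligodendrocytes. In each type 200 genes were changed, and every gene was given the same dispersion. The data had 6 calls in 42562 combinations, and an FDR threshold is harder to pass when fewer genes change. These shares therefore do not give the power of the tests of the members. Levels, shares and thinning to 700 UMIs (41 shallower cells left out) used Python 3.11.15. Within-batch differences used a pseudocount of 0.5 CPM.

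Statistics are given for *Ephb3* and *Epha4* in Astrocytes_1, *Efnb3* in neurons, and for each listed gene and type at an unadjusted p under 0.05, with up to 3 signalling genes per type; other values shown for comparison were chosen after they were seen. 2 listed markers are not reported here, and their lists were used without them. The members and lists were chosen with earlier results of these data known. The batch description, the barcode alternative and the second class rule were added after seeing the data. UMI counts per mouse set the precision, and upper limits for 0 (3 counts) cover counting error only.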

Additional observations from a re-analysis of the deposited data

How the results depend on the processing

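Of the 10 members, 0 were called between genotypes in 16 of 17 alternatives: an FDR under 0.05, no batch term, no TMM, edgeR's own filter, no filter, 700 UMIs per cell, the equal neuron mix, 1 cell per mouse and barcode, DESeq2, the replicate block, and each mouse left out (0 to 0). With cells as replicates there were 4. The FDR under 0.05 was used with the main filter only. Without the filter, *Ephb3* in Astrocytes_1 had an FDR of 0.047, which is under 0.05 but not under 0.01. Of the family and signalling genes 0 were called (0 to 0 with a mouse left out), except 1 without the filter (*Grip2* in neurons) and 3 with cells as replicates. Between astrocytes and neurons 0 members were called in all 11 alternatives. Of 277 values of the 19 named results, 271 kept their direction and side of the threshold, and 5 passed it with cells as replicates. *Chn1* in OPC_1 changed sign to 0.14 at 700 UMIs per cell. None of the 19 had passed its threshold in the main fits, so the count of 271 does not measure stability. Values that shrank were also counted as kept. *Epha4* in ganglionic cells fell from 0.42 to 0.00056 without Fmr1-KO 3, and *Efnb3* in excitatory neurons from -0.31 to -0.056 with the replicate block. The member's highest subtype was the same for 8 to 10 of 10 genes with a mouse left out. *Fmr1* over all cells was -2.08 without the batch term (FDR 0.0104) and -2.08 with the replicate block (FDR 0.0239), so it no longer passed 0.01; leaving out a mouse gave -2.20 to -1.91, and it missed 0.01 without WT 2 (-2.04, FDR 0.033), Fmr1-KO 1 (-2.05, FDR 0.017) or Fmr1-KO 2 (-2.12, FDR 0.011). For the block, same-numbered mice did not pair: the correlation of their deviations was negative for number 2 (WT 2 and Fmr1-KO 2 are of different batches), and the block left the members at 0 called with 6 at an unadjusted p under 0.05. The cause of these changes was not tested.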
